A study of Mus musculus with 8 samples.

Results

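De novo purine synthesis was described here through 10 transcripts, those of Prps1, Ppat, Gart, Pfas, Paics, Adsl, Atic, Impdh1, Impdh2 and Gmps, which were picked by gene symbol. By the GENCODE M21 annotation Prps1 lies on chromosome X, Ppat and Paics on 5, Gart on 16, Pfas on 11, Adsl on 15, Atic on 1, Impdh1 on 6, Impdh2 on 9 and Gmps on 3. All 10 were among the 17847 genes of the deposited table, and all 10 passed the filter on low values that left 17801 genes for testing. The libraries were made from sorted muscle stem cells of C57Bl/6 mice, cells that express Pax7 and rebuild skeletal muscle after injury. There were 4 Cox10-/- libraries and 4 wild-type libraries. In the Cox10-/- animals a floxed Cox10 allele had been recombined in adult mice by a tamoxifen-inducible Cre driven by Pax7, so that Cre is made in cells that express Pax7. The samples of both genotypes carry the same treatment label, tamoxifen given once into the peritoneum (200 mg/kg), with purification 2 days later. The alleles that the wild-type animals carried (Cre, floxed or neither), their sex and their exact age were not stated in the sources used here. The sort kept CD34+ cells that lacked Sca1, CD31, CD45 and staining by DAPI, which marks dead cells. No label states that each library came from its own animal, so p-values measure the spread between these samples, which may be partly technical.

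Cells build purines on a ribose phosphate. Phosphoribosyl pyrophosphate synthetases such as Prps1 make the activated ribose (PRPP), the amidotransferase Ppat adds a nitrogen in the committed step, and Gart, Pfas, Paics, Adsl and Atic assemble the ring up to inosine monophosphate (IMP). Gart and Atic take carbon from formyl tetrahydrofolate, and Ppat and Pfas take nitrogen from glutamine. From IMP, Impdh1 or Impdh2 and then Gmps lead to guanosine monophosphate (GMP), and adenylosuccinate synthetase followed by Adsl, which therefore acts at a pair of steps, leads to adenosine monophosphate (AMP). Dividing cells rely on this route, while resting cells can recover purine bases by salvage. Cox10 makes haem O, a precursor of the haem A of respiratory complex IV, and mitochondria supply formate and aspartate to purine synthesis.

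Depth was 1694990 to 4650032 reads in genes per library, and the 10 transcripts held between 19 reads (Impdh1 in Cox10-/- replicate 4, the shallowest library) and 509 reads (Paics) per library. Cox10 was 3.51, 3.69, 3.49 and 2.05 log2 CPM (the reads of a gene scaled to the total of reads in genes, on a log2 scale) in Cox10-/- replicates 1 to 4, against 3.98, 3.42, 4.12 and 3.69 log2 CPM in wild-type replicates 1 to 4. The genotypes overlapped in Cox10, and its log2 fold change of -0.62 ± 0.34 (SE, n = 4 per genotype) did not pass the test (limma adjusted p = 0.246). It was -0.24 without Cox10-/- replicate 4, which held 7 Cox10 reads, and -1.14 in replicates 3 and 4 against -0.10 in replicates 1 and 2. The labels do not say which part of Cox10 was removed, so reads of undeleted parts may contribute. All 10 listed muscle stem cell markers were detected. Of these 7 fell (70%, against 8.51% of all genes), with Pax7 at -1.29 on the log2 scale. The list summed to 1426 to 1608 CPM in Cox10-/- and 2195 to 2757 CPM in wild-type libraries. Markers of cells that the sort should have excluded were also present. The 10 fibroblast markers summed to 5350 to 11237 CPM in Cox10-/- and 5202 to 7108 CPM in wild-type libraries. Of these 2 rose and 1 fell (30% called, against 16.1% of all genes). Ly6a, the gene of Sca1, lay at 1.84, Pdgfra at 0.84 and Dpt at -0.54. Ly6a, the only gene of this list whose protein the sort used, was low, with means of 3.08 log2 CPM in Cox10-/- and 1.245 log2 CPM in wild-type. The highest levels of the list were those of Col1a1, Col1a2 and Col3a1, with wild-type means of 10.8, 10.5 and 10.3 log2 CPM. Of 10 listed immune markers 6 had no value here, among them Ptprc, the gene of CD45. The 4 immune markers measured summed to 27.7 to 47.4 CPM in Cox10-/- and 25.6 to 35.2 CPM in wild-type libraries. The sort used no marker from the mural list, so its level does not bear on excluded cells. The 10 mural markers summed to 1470 to 1752 CPM in Cox10-/- and 1753 to 1862 CPM in wild-type libraries. Of these 2 rose and 3 fell (50% called, against 16.1% of all genes), and the list median was 0.12. Myh11 rose by 1.28 and Pdgfrb by 0.91, while Notch3 lay at -2.38, Cspg4 at -0.60 and Acta2 at -0.36.

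Of the 10 transcripts, 2 fell in Cox10-/- cells and none rose, at an adjusted p under 0.05. They were Atic, which completes the IMP ring, and Impdh2, the first enzyme of the branch to GMP. Over all genes tested, 16.1% passed the test in either direction and 8.51% fell, so 2 of 10 lies close to the background share. A total of 7 of the 10 lay below 0, as did 55.2% of all genes. The median log2 fold change of the 10 was -0.34, beside -0.06 over all genes tested. All Cox10-/- libraries lay on one side of all wild-type libraries in 3 of the 10, against 21.1% of all genes. Atic and Impdh2 were lower throughout (11.8% of all genes) and Prps1 higher throughout (9.3% of all genes). Summed over the 10 transcripts, Cox10-/- replicates 1 to 4 held 585.3, 611.8, 571.0 and 516.0 CPM, against 655.4, 624.2, 685.8 and 648.8 CPM in wild-type replicates 1 to 4. These sums averaged 571 ± 40.4 CPM in Cox10-/- and 654 ± 25.4 CPM in wild-type (SD, n = 4 each). In bulk samples fewer cells of a type and less RNA per cell cannot be told apart.

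**Figure D1:**
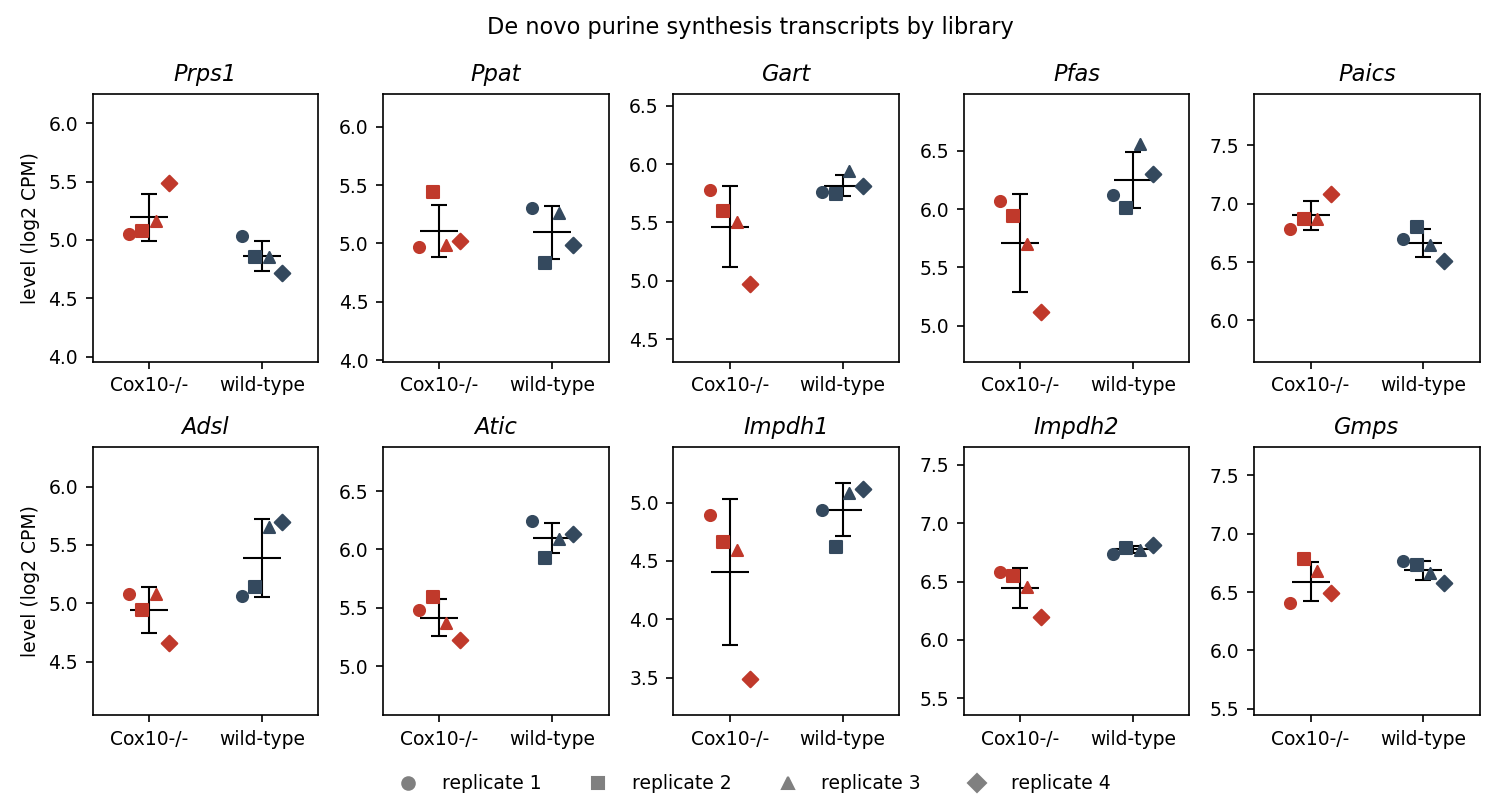
Level of each transcript (log2 CPM, vertical axes of equal span) in the 4 Cox10-/- libraries (left, red) and the 4 wild-type libraries (right, dark), with marker shape for the replicate number and a bar for mean ± SD. Atic and Impdh2 are lower in every Cox10-/- library than in any wild-type library, and Cox10-/- replicate 4 is the lowest of all 8 libraries in 6 of the 10 panels.

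At the start of the pathway, Prps1 makes PRPP. It held 5.05, 5.08, 5.16 and 5.49 log2 CPM in Cox10-/- replicates 1 to 4, against 5.03, 4.85, 4.85 and 4.72 log2 CPM in wild-type replicates 1 to 4. Every Cox10-/- library was above every wild-type library, by as little as 0.02 between the nearest. The log2 fold change of 0.33 ± 0.14 (SE, n = 4 per genotype) did not pass over all genes (limma adjusted p = 0.134), and the exact two-sided permutation p was 0.0286, the smallest that 70 assignments of libraries allow.

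Prps1 shares sequence with Prps1l3, an annotated relative on chromosome 12, and the pair moved in opposite directions. Of the 50-base words in annotated Prps1 transcripts, 9.93% also occur in those of Prps1l3, so some reads could be assigned to either gene. Prps1l3 held 4.67, 4.90, 4.86 and 4.28 log2 CPM in Cox10-/- replicates 1 to 4, against 4.98, 5.34, 4.96 and 4.96 log2 CPM in wild-type replicates 1 to 4. All Cox10-/- libraries were lower, and the log2 fold change of -0.38 ± 0.17 (SE) did not pass (limma adjusted p = 0.147). Their summed level was 58.6, 63.7, 64.8 and 64.4 CPM in Cox10-/- replicates 1 to 4, against 64.2, 69.3, 60.0 and 57.5 CPM in wild-type replicates 1 to 4. The sum overlapped between the genotypes (58.6 to 64.8 CPM in Cox10-/- and 57.5 to 69.3 CPM in wild-type libraries). It was formed after the opposite directions of its parts were seen, so its small difference is a description and no test. The sources used here do not say how reads matching both genes were counted, and the part of read assignment in the Prps1 values was not tested.

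**Figure D2:**
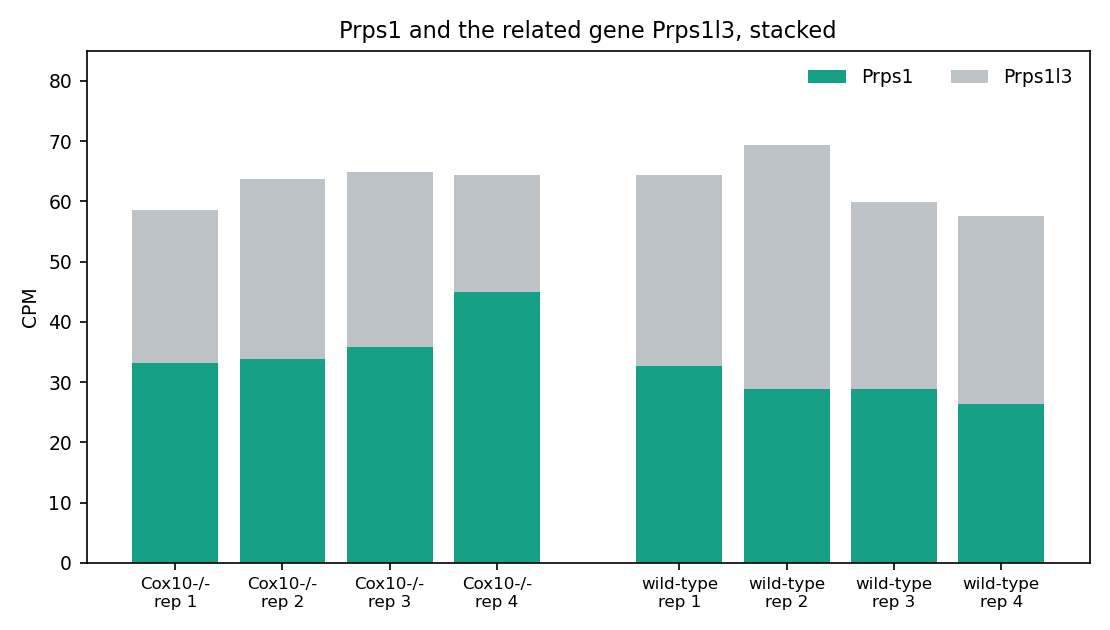
CPM of Prps1 (green) and Prps1l3 (grey), stacked, in Cox10-/- replicates 1 to 4 (left) and wild-type replicates 1 to 4 (right). The Prps1 share is larger in Cox10-/- bars, while whole bars reach 58.6 to 64.8 CPM in Cox10-/- and 57.5 to 69.3 CPM in wild-type libraries.

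Ppat, the amidotransferase of the committed step, showed the smallest difference of the 10. Its level was 4.97, 5.44, 4.99 and 5.02 log2 CPM in Cox10-/- replicates 1 to 4, against 5.30, 4.83, 5.26 and 4.99 log2 CPM in wild-type replicates 1 to 4. The ranges overlapped, and the 95% interval of the log2 fold change ran from -0.33 to 0.35 around 0.01 (limma adjusted p = 0.976). A change anywhere in that interval could not be separated from none with 4 libraries per genotype.

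Gart, Pfas, Paics, Adsl and Atic carry out the ring-building steps, and in these steps the transcripts did not all lie on one side. Gart catalyses a set of early reactions, among them the first transfer of a formyl group. It held 5.78, 5.60, 5.50 and 4.97 log2 CPM in Cox10-/- replicates 1 to 4, against 5.76, 5.74, 5.94 and 5.81 log2 CPM in wild-type replicates 1 to 4. Cox10-/- replicates 2 to 4 were below every wild-type library and replicate 1 was not (log2 fold change -0.35 ± 0.16 SE, n = 4 per genotype; limma adjusted p = 0.157). Pfas, the glutamine-using amidotransferase that follows, held 6.07, 5.94, 5.70 and 5.12 log2 CPM in Cox10-/- replicates 1 to 4, against 6.12, 6.01, 6.56 and 6.30 log2 CPM in wild-type replicates 1 to 4. Here too 3 of the 4 Cox10-/- libraries lay below the wild-type range, and the log2 fold change of -0.54 ± 0.19 (SE, n = 4 per genotype) did not pass (limma adjusted p = 0.0758).

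Paics, which adds carbon dioxide and then aspartate, lay the other way. Its level was 6.78, 6.87, 6.87 and 7.08 log2 CPM in Cox10-/- replicates 1 to 4, against 6.70, 6.80, 6.65 and 6.51 log2 CPM in wild-type replicates 1 to 4. Of the Cox10-/- libraries, 3 were above all wild-type libraries, and the log2 fold change of 0.24 ± 0.10 (SE, n = 4 per genotype) did not pass (limma adjusted p = 0.132). Adsl, which releases fumarate, held 5.08, 4.94, 5.08 and 4.66 log2 CPM in Cox10-/- replicates 1 to 4, against 5.06, 5.14, 5.65 and 5.70 log2 CPM in wild-type replicates 1 to 4. The genotypes overlapped, since wild-type replicate 1 lay just below Cox10-/- replicates 1 and 3 (log2 fold change -0.45 ± 0.18 SE, n = 4 per genotype; limma adjusted p = 0.103).

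Atic, which adds the last formyl carbon and closes the ring to IMP, had the largest difference of the 10. It held 5.48, 5.59, 5.37 and 5.22 log2 CPM in Cox10-/- replicates 1 to 4, against 6.24, 5.93, 6.09 and 6.13 log2 CPM in wild-type replicates 1 to 4. Every Cox10-/- library was below every wild-type library, with a gap of 0.34 between the nearest. Atic fell by 0.68 ± 0.12 on the log2 scale (SE, n = 4 per genotype; 95% interval -0.94 to -0.42; limma adjusted p = 0.0024), which puts its geometric mean at 62.3% of wild-type. The exact two-sided permutation p was 0.0286, the smallest possible with n = 4 per genotype. The call held in all 8 fits that left out 1 library, with adjusted p from 0.00252 to 0.012 by limma. It was lost, at an adjusted p of 0.0589, when the means of replicates 1 and 2 and of replicates 3 and 4 were taken as 2 samples per genotype.

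From IMP towards GMP, the rate-limiting oxidation is shared by a pair of isozymes. Impdh2, the form that dividing cells use most, held 6.58, 6.55, 6.45 and 6.20 log2 CPM in Cox10-/- replicates 1 to 4, against 6.74, 6.79, 6.77 and 6.81 log2 CPM in wild-type replicates 1 to 4. The genotypes did not overlap, and the wild-type libraries lay within 0.07 of each other. Impdh2 fell by 0.33 ± 0.10 on the log2 scale (SE, n = 4 per genotype; 95% interval -0.55 to -0.11; limma adjusted p = 0.0433), to 79.4% of wild-type. Only the fit without Cox10-/- replicate 1, of the 8 that left out a library, kept this call (limma adjusted p 0.0389 there and 0.0548 to 0.0977 in the others). Median centring also ended it (0.136). Of the 50-base words in annotated Impdh2 transcripts, 39.3% also occur in its pseudogene Impdh2-ps, for which no value was used here, so reads that match both could have been lost or moved.

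Impdh1, the isozyme found in most resting tissues, held 4.89, 4.66, 4.59 and 3.49 log2 CPM in Cox10-/- replicates 1 to 4, against 4.94, 4.62, 5.08 and 5.12 log2 CPM in wild-type replicates 1 to 4. The genotypes overlapped, and Cox10-/- replicate 4 stood far below the others at 19 reads (log2 fold change -0.53 ± 0.27 SE, n = 4 per genotype; limma adjusted p = 0.196). Gmps, which uses glutamine to make GMP, held 6.41, 6.78, 6.68 and 6.49 log2 CPM in Cox10-/- replicates 1 to 4, against 6.77, 6.73, 6.66 and 6.58 log2 CPM in wild-type replicates 1 to 4. Its ranges overlapped, and the 95% interval of the log2 fold change, -0.32 to 0.13, includes 0 (limma adjusted p = 0.577).

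**Figure D3:**
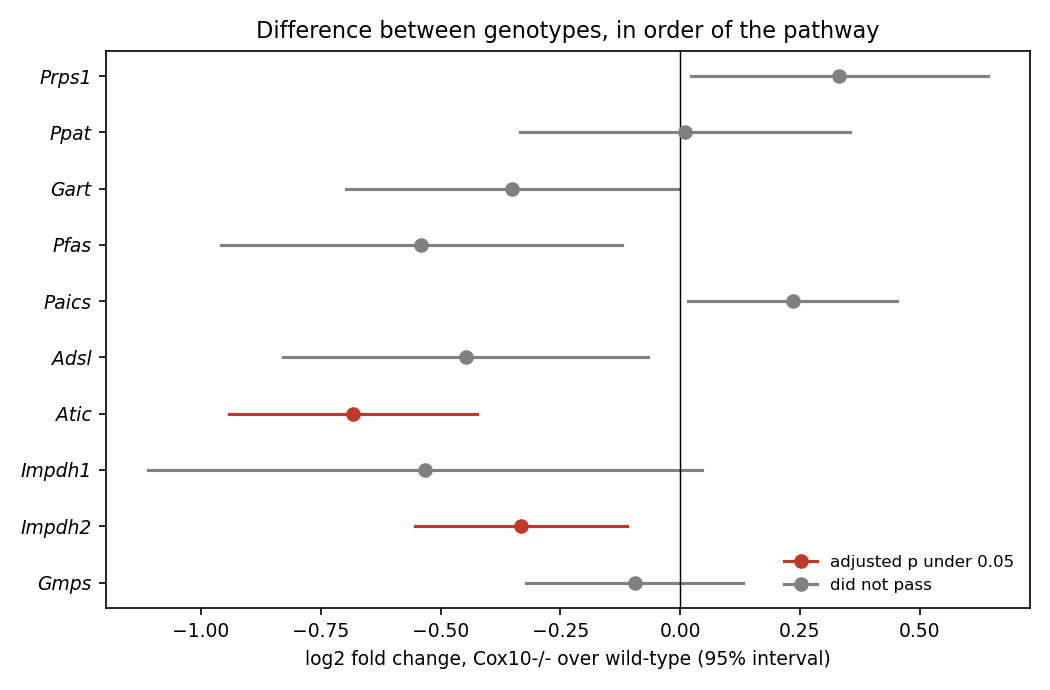
Log2 fold change of Cox10-/- over wild-type (horizontal axis) with its 95% interval for the 10 transcripts, from the start of the pathway at the top to GMP synthesis at the bottom; red marks an adjusted p under 0.05. Atic at -0.68 and Impdh2 at -0.33 passed, and Prps1, Ppat and Paics lie at or above 0.

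The sequences before the start sites of Atic and Impdh2 are shown because these were the transcripts that fell, and that of Paics because it lay on the other side and starts head to head with Ppat. RefSeq windows of 300 bases (250 before and 50 after an annotated start, build GRCm38.p6) were found for 9 of the 10 genes, in 10 windows. The hexamer CACGTG, the E-box that Myc and other basic helix-loop-helix factors can bind, was searched on both strands and reads the same on each. It occurred in 3 of the 10 windows, those of Atic, Impdh2 and Paics, and in 7.15% of all 32851 windows of that length. Both genes that fell and a gene that did not pass thus hold the hexamer, which is shown in capitals.
Atic, chr1:71556906-71557205, plus strand: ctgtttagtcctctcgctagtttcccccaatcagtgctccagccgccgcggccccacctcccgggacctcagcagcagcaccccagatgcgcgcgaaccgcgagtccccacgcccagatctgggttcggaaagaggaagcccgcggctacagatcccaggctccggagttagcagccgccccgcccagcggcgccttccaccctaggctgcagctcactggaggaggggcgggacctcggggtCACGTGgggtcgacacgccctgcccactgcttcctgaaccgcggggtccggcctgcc
Impdh2, chr9:108560186-108560485, plus strand: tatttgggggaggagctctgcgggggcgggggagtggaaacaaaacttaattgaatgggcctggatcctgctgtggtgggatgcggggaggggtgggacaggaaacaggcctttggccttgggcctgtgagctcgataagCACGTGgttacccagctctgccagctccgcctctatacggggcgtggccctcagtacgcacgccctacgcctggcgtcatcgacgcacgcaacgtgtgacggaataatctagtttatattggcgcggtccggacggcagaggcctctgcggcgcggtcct
Paics, chr5:76951052-76951351, plus strand: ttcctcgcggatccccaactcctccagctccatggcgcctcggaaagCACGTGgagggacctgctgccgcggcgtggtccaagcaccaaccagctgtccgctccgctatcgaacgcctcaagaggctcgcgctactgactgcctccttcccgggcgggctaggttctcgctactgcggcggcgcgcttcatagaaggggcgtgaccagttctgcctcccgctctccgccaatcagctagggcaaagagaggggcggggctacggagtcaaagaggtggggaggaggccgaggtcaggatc

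The hexamer begins 7 bases before the annotated start of Atic, 110 bases before that of Impdh2 and 203 bases before that of Paics. The window of Ppat lies on the opposite strand, 177 bases from that of Paics, and holds no CACGTG. Of other words searched on both strands, CCAAT occurred in 5 member windows (Atic, Gart, Impdh2, Paics and Prps1), against 37.4% of all windows. CCGGAAG, a site of ETS factors, occurred in 3 (Gart, Ppat and Prps1), against 8.86% of all windows. These are matches of letters and not measured binding. Annotated transcripts of Ppat and Paics also overlap in opposite directions, with 5.44% of the 50-base words of Ppat found on the opposite strand of another gene, and those of Gart overlap an antisense gene (15.5%). The library kit keeps strand per the labels, but the sources used here do not say whether the counting used it.

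The size of the difference depended on which libraries were compared. Earlier results on these data had shown that replicate 1 resembles replicate 2 most, and replicate 3 replicate 4, within each genotype; the labels give no reason. The difference was larger in replicates 3 and 4 than in replicates 1 and 2 for 8 of the 10 transcripts. Over the 10, replicates 3 and 4 gave a median of -0.55 (all genes -0.15), and replicates 1 and 2 gave -0.06 (all genes 0.05). Pfas differed by -1.02 in replicates 3 and 4 but only -0.06 in replicates 1 and 2. Impdh1 differed by -1.06 and -0.005 in the same subsets, Adsl by -0.81 and -0.09, and Gart by -0.64 and -0.06. Atic was well below 0 in both subsets, at -0.82 in replicates 3 and 4 against -0.55 in replicates 1 and 2. Whether the subsets differ was not tested.

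Cox10-/- replicate 4 lay at one end of the range for most of the transcripts. It was the lowest of the 8 libraries for 6 of the 10 transcripts and the highest for 2, Prps1 and Paics. That library also had the fewest Cox10 reads (7), the fewest reads in genes (1694990), and, of the Cox10-/- libraries, the highest summed levels of fibroblast (11237 CPM), mitotic (1044 CPM) and muscle fibre markers (370.2 CPM) and the lowest of endothelial (347.8 CPM) and immune markers (27.7 CPM). The part of these differences in the result was not tested. Without it the median of the 10 was -0.21, with Atic at -0.62, Pfas at -0.34, Impdh2 at -0.25, Impdh1 at -0.23 and Gart at -0.19, and the call of Atic held (limma adjusted p = 0.00542) while that of Impdh2 was lost (0.0772).

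**Figure D4:**
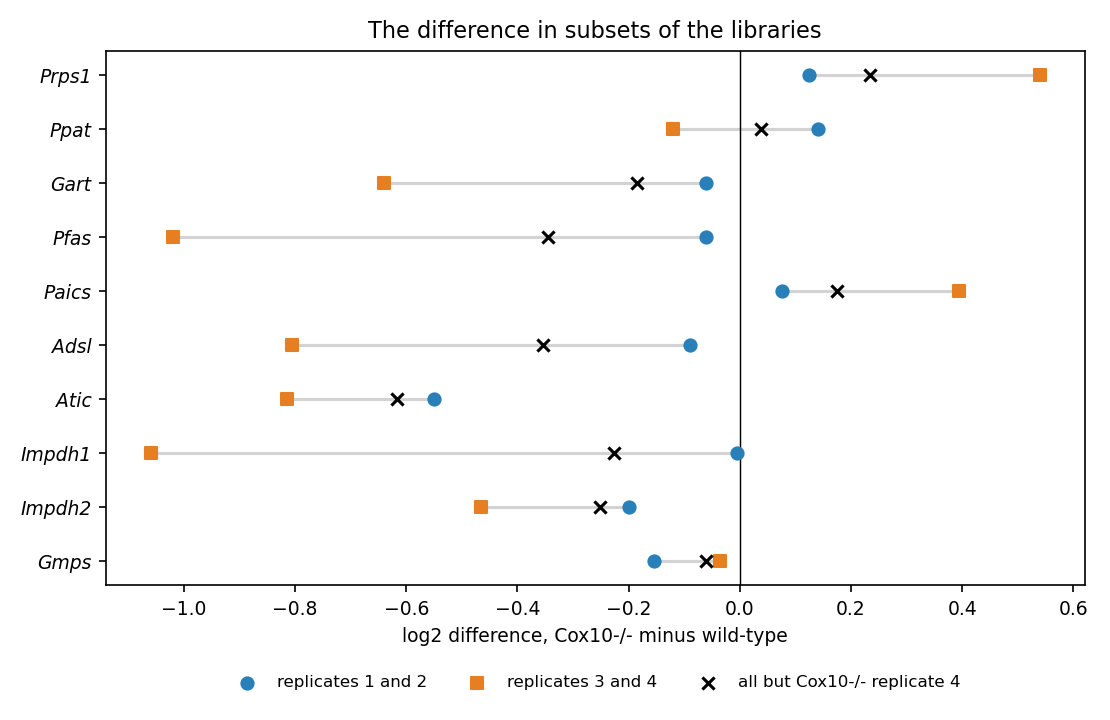
Log2 difference of Cox10-/- minus wild-type for each transcript within replicates 1 and 2 (blue circles), within replicates 3 and 4 (orange squares) and with all libraries but Cox10-/- replicate 4 (black crosses). Pfas and Impdh1 are near 0 in replicates 1 and 2 and beyond -1 in replicates 3 and 4, whereas Atic lies below -0.5 in all 3 sets.

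Levels of different genes were set side by side only as CPM per kilobase of annotated exon, with lengths from GENCODE M21, which is not the annotation the authors counted on. Paics held 38.2 ± 3.46 CPM per kb in Cox10-/- and 32.4 ± 2.68 CPM per kb in wild-type libraries, and Impdh2 held 28.5 ± 3.25 in Cox10-/- and 35.7 ± 0.74 in wild-type libraries (SD, n = 4 each). These were the most abundant of the 10 per length. In wild-type libraries their ranges overlapped with each other and not with that of Prps1, next in order at 14.6 ± 1.31 CPM per kb. Below it the wild-type ranges of neighbours overlapped, from Gmps (12.7 ± 0.73 CPM per kb) through Gart, Pfas, Impdh1, Atic (8.60 ± 0.76) and Ppat (7.80 ± 1.19) to Adsl (7.58 ± 1.73). The committed enzyme Ppat was thus among the least abundant per length. In Cox10-/- libraries Atic averaged 5.37 ± 0.58 CPM per kb, the lowest mean of the 10 but close to that of Adsl at 5.49 ± 0.72. The length joined every annotated exon of a gene, whether or not these cells use it. It was 7.985 kb for Atic and 8.105 kb for Gmps, against 3.139 kb for Paics and 3.077 kb for Impdh2. The order of the genes may depend on this choice, and no other length was tried.

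Around the 10 transcripts, 110 other tested genes in 9 lists of linked reactions had 15 rises and 14 falls (26.4% called, against 16.1% of all genes). In the PRPP synthetase family, Prps2, which makes PRPP like Prps1, fell by 0.92 ± 0.18 on the log2 scale (SE, n = 4 per genotype; limma adjusted p = 0.00553). It held 4.23, 3.83, 3.89 and 3.56 log2 CPM in Cox10-/- replicates 1 to 4, against 4.73, 4.57, 4.91 and 4.99 log2 CPM in wild-type replicates 1 to 4, with no overlap. Like that of Atic, the call was lost when replicates 1 and 2, and 3 and 4, were averaged (limma adjusted p = 0.0762). The PRPP synthetase-associated protein gene Prpsap2 lay at -0.54 ± 0.17 (SE) and did not pass (limma adjusted p = 0.0544). The branch to AMP held the only rise of this list, in which 2 of 6 tested genes passed (33.3%, against 16.1% of all genes). Adssl1, the muscle form of adenylosuccinate synthetase, rose by 1.68 ± 0.25 (SE, n = 4 per genotype; limma adjusted p = 0.000773), while the form of most other tissues, Adss, lay at 0.22 ± 0.10 (SE) and did not pass (0.158). Adssl1 held 4.33, 4.42, 3.86 and 3.76 log2 CPM in Cox10-/- replicates 1 to 4, against 2.76, 2.36, 2.37 and 2.16 log2 CPM in wild-type replicates 1 to 4. Of 9 muscle fibre markers tested 2 rose, Tnnt3 and Ckm (22.2%, against 16.1% of all genes), and 7 did not pass, with Myh1 at -1.53. Their median was 1.14, and they summed to 135 to 370 CPM in Cox10-/- and 94.2 to 245 CPM in wild-type libraries; their part in the Adssl1 result was not tested.

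Of 22 tested genes of purine salvage and breakdown, 6 rose and 1 fell (31.8%, against 16.1% of all genes). The other 15 did not pass, 12 of the 22 lay below 0, and the list median was -0.05. Xdh, which oxidises hypoxanthine and xanthine to uric acid, held 7.91, 8.07, 8.46 and 8.50 log2 CPM in Cox10-/- replicates 1 to 4, against 5.38, 5.27, 5.90 and 6.09 log2 CPM in wild-type replicates 1 to 4. It rose by 2.58 ± 0.19 (log2, SE, n = 4 per genotype; limma adjusted p = 5.9e-06), with every Cox10-/- library above every wild-type library. Ampd3, an AMP deaminase, rose by 1.15 ± 0.13 (SE), and guanine deaminase Gda, near the low end of the table, by 1.58 ± 0.34. The ectonucleotidase Nt5e rose by 0.70 ± 0.11, and the nucleoside phosphorylases Pnp and Pnp2, whose sequences may share reads, by 0.70 ± 0.11 and 1.10 ± 0.26. The member that fell was Dguok, the mitochondrial deoxyguanosine kinase (-0.73 ± 0.18), whose call was lost in 3 of 8 fits without 1 library. With replicates averaged in this way the calls of Dguok (limma adjusted p = 0.183) and Pnp2 (0.146) were lost. Ampd2, another AMP deaminase, lay at -0.69 ± 0.22 with every Cox10-/- library lower and did not pass (0.0508), and the nucleotidase Nt5c3 lay at -0.48 ± 0.19 (0.0992). Hprt, which recovers hypoxanthine and guanine, lay at -0.26 ± 0.18, Aprt for adenine at -0.11 ± 0.16 and Adk for adenosine at 0.09 ± 0.13 (SE), named, like Nt5c3, after their values were seen. In the same libraries 4 of 10 endothelial markers rose (40%, against 7.58% of all genes). The endothelial list summed to 348 to 433 CPM in Cox10-/- and 263 to 313 CPM in wild-type libraries, and its part in the result was not tested.

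Folate enzymes supply the formyl groups that Gart and Atic use. Of 16 tested, 3 fell and 1 rose (25%, against 16.1% of all genes), and the list median was -0.20. Mthfd1l, which makes formate in mitochondria, fell by 1.00 ± 0.19 on the log2 scale (SE, n = 4 per genotype; limma adjusted p = 0.00372). The folate carrier Slc19a1 fell by 0.81 ± 0.19, and the mitochondrial formyl tetrahydrofolate dehydrogenase Aldh1l2 by 1.50 ± 0.40. Both calls were lost with replicates averaged in this way (limma adjusted p = 0.116 and 0.0782), and that of Aldh1l2 also in 3 of 8 fits without 1 library (up to 0.0647). Aldh1l2 differed by -2.29 in replicates 3 and 4 against -0.71 in replicates 1 and 2. Its cytosolic counterpart Aldh1l1, which removes formyl groups, rose by 1.76 ± 0.23 (limma adjusted p = 0.000383). It held 5.94, 6.57, 5.92 and 5.92 log2 CPM in Cox10-/- replicates 1 to 4, against 3.82, 4.90, 4.05 and 4.55 log2 CPM in wild-type replicates 1 to 4, with no overlap. Mthfd1, the cytosolic enzyme that forms formyl tetrahydrofolate, lay at -0.005 ± 0.11 (SE; limma adjusted p = 0.983), named after its value was seen.

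Of 11 pentose phosphate genes tested 4 passed (36.4%, against 16.1% of all genes). Taldo1 (-0.73 ± 0.14) and Rpe (-0.54 ± 0.15) fell, while H6pd (0.77 ± 0.10, SE) and the low-abundance Tktl1 (1.02 ± 0.32) rose. The genotypes overlapped in Tktl1, whose call was lost in 7 of 8 fits without 1 library, and that of Rpe was lost in 6 of 8. With replicates averaged in this way, the calls of Taldo1, Rpe and Tktl1 were all lost (limma adjusted p = 0.0929, 0.237 and 0.19). In the next 3 lists the share called was near or below the 16.1% of all genes. Of 14 nitrogen donor genes 2 passed (14.3%), with Psat1 of serine synthesis down by 1.12 ± 0.21 and the glutamine carrier Slc1a5 up by 0.75 ± 0.15. Of 12 purine nucleotide kinases 1 passed (8.33%), Nme4 at -1.50 ± 0.35, and its call was lost with replicates averaged (0.0802). Of 6 genes of ribonucleotide reductase and deoxynucleotide balance 1 passed (16.7%), the deoxynucleotide hydrolase Samhd1 at 0.95 ± 0.10. Of 11 pyrimidine genes 5 fell and 1 rose (54.5%, against 16.1% of all genes), with Cad at -1.39 ± 0.18 and Dctd at -2.31 ± 0.24. Cad and Dctd kept their calls with replicates averaged. Those of Ctps2, Tyms, Cmpk2 and Dtymk were lost (limma adjusted p = 0.0762, 0.0587, 0.107 and 0.198). The call of Dtymk was also lost in 3 of 8 fits without 1 library. The pyrimidine share was not tested against the 2 of 10 of purine synthesis.

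Among 12 regulators linked to these genes 2 rose, Mitf by 1.45 ± 0.14 and the Myc partner Max by 0.53 ± 0.10 (SE, n = 4 per genotype; limma adjusted p = 4.0e-05 and 0.00478). That is 16.7% of the list, against 16.1% of all genes, and the call of Max was lost with replicates averaged in this way (limma adjusted p = 0.104). Myc itself, named after its values were seen, held 7.92, 7.86, 7.74 and 7.76 log2 CPM in Cox10-/- replicates 1 to 4, against 7.98, 8.35, 7.65 and 7.44 log2 CPM in wild-type replicates 1 to 4. The genotypes overlapped, and the sign of its log2 fold change of -0.04 ± 0.16 (SE) turned with median centring (limma adjusted p = 0.91). Of 10 mitotic markers, which belong to the dividing state that uses purine synthesis most, 7 rose (70%, against 7.58% of all genes). The list median was 1.19, and the list summed to 383 to 1044 CPM in Cox10-/- and 227 to 636 CPM in wild-type libraries. The part of these markers in the purine synthesis values was not tested. The genotypes overlapped in each of the 10 mitotic markers.

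**Figure D5:**
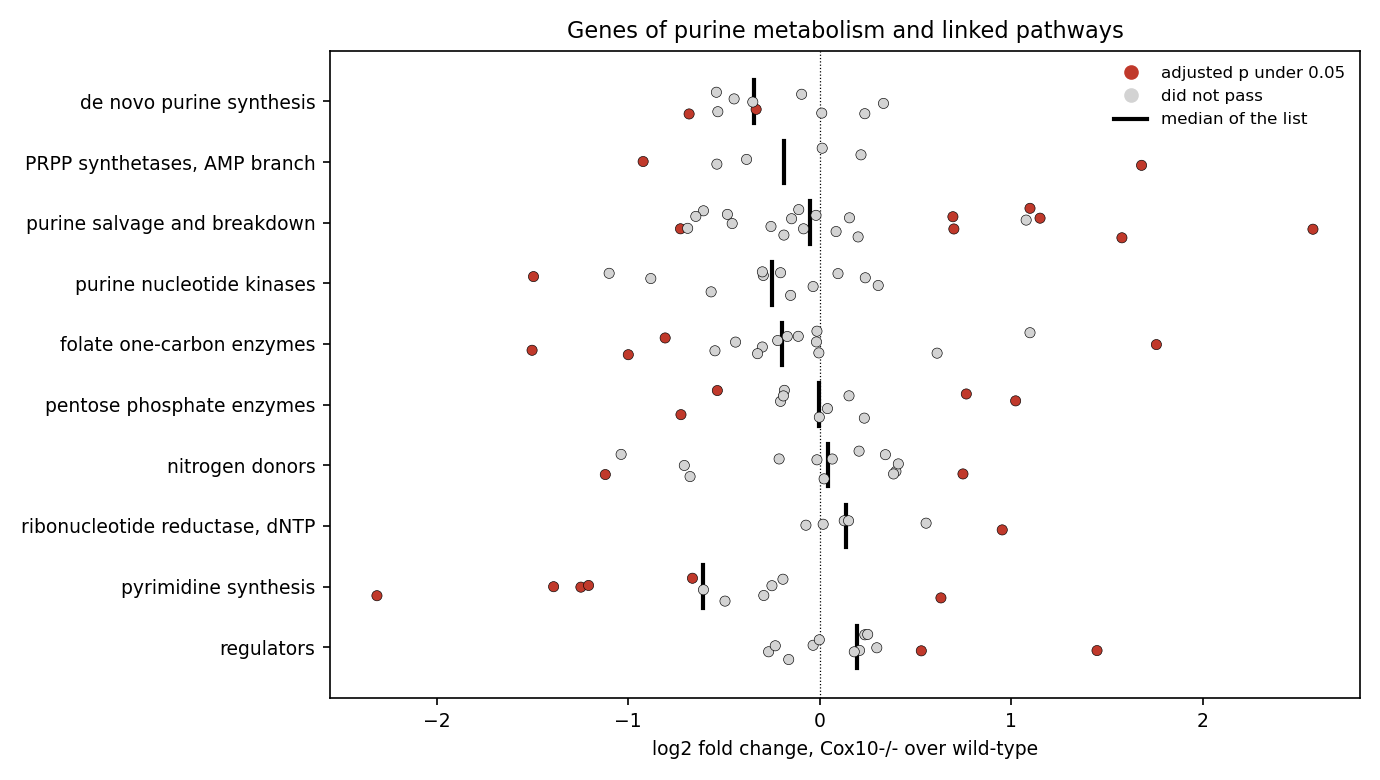
Log2 fold change of Cox10-/- over wild-type (horizontal axis) for each tested gene of de novo purine synthesis and of 9 linked lists, 1 list per line; points are spread vertically for visibility, red marks an adjusted p under 0.05 and the black bar is the list median. Xdh at 2.58 is the rightmost point, and the medians run from -0.61 for pyrimidine synthesis to 0.19 for regulators.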

How the data were processed

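RNA of 8 libraries, 4 per genotype, was analysed from 1 table of the whole series. The authors deposited log2 CPM, as tested on the file: linear columns sum to 994342 to 995129, values carry 2 decimals, and every CPM of 1 or less stands at 0. Build mm9 and the tools HISAT2, featureCounts, Trim Galore and DESeq2 appear in the submitters' processing notes, without versions or counting settings. A further 1054 rows held no gene, and the authors' mean column was not used. Low values were whole multiples of 1 read (all within 0.1 up to 20 reads), which gave the depth; read numbers cover counting error only.

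Genotypes were compared on the deposited log2 values (limma 3.58.1, R 4.3.3), with a variance trend, genotype alone, and Benjamini-Hochberg adjustment over the 17801 genes above 0 in at least 4 libraries (46 removed). Intervals are at 95% from moderated errors. Nme4 has a library at 0, so its fold change starts from that floor. The fit was tested on simulated data with independent errors in each library, so likeness between replicates was not simulated. Named genes were the 10 transcripts, Cox10, genes past the threshold and up to 4 smallest p per list; not every gene that rule selects is described. The members and lists were chosen with earlier results of these data known. Count tests planned as alternatives were not run, since the deposited values are log2; voom weights on recovered reads were used instead, chosen after seeing the data. Shared words were exact 50-base matches between GENCODE M21 transcripts.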

Additional observations from a re-analysis of the deposited data

Results flagged for a closer look

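Of 84 groups of 4 libraries examined (42 genes in each genotype), 4 held a library whose gap to its nearest neighbour took most of the range of the group, and chance flags about 1 in 20. Ppat in Cox10-/- replicate 2 stood at 5.44 log2 CPM, above the other Cox10-/- libraries at 4.97 to 5.02. Cox10 in Cox10-/- replicate 4 stood at 2.05 log2 CPM, below the others at 3.49 to 3.69. Psat1 in Cox10-/- replicate 4 stood at 4.19 log2 CPM, below the others at 4.43 to 4.46. Aldh1l1 in Cox10-/- replicate 2 stood at 6.57 log2 CPM, above the others at 5.92 to 5.94.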

How the results depend on the processing

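Atic kept its direction in all alternatives and its call in 16 of 17, and Impdh2 kept its call in 7 of 17 (limma adjusted p 0.0235 to 0.3). The other 8 transcripts had no call in any alternative, except Pfas after median centring (0.0429) and without Cox10-/- replicate 1 (0.0431). With 1 library left out, 1 to 3 of the 10 transcripts passed, and over all genes 1840 to 2907 passed (873 to 1439 higher, 952 to 1725 lower), against 2863 with all libraries. It was 1840 without Cox10-/- replicate 3 (873 higher, 967 lower) and 1902 without wild-type replicate 1 (952 lower), and 985 were lower without wild-type replicate 3. When each genotype was reduced to a mean of replicates 1 and 2 and a mean of replicates 3 and 4, 0 of the 10 passed (limma; adjusted p of Atic 0.0589), 858 genes passed (445 higher, 413 lower), and 15 linked genes did, against 29. Without the 2 shallowest libraries 1 of the 10 passed. Rises were 47.1% of all calls as deposited and 58.4% after median centring.

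Signs turned for Ppat and Myc. Ppat ran from -0.10 to 0.0783 with 1 library left out and was -0.05 without the 2 shallowest libraries. Myc ran from -0.17 to 0.13 with 1 library left out, and was 0.0475 after median centring and 0.15 without the 2 shallowest libraries. The causes were not tested. With the replicate number as a block 3201 genes passed, 2 of the 10 among them. Deviations of same-numbered libraries correlated at 0.045 to 0.137, so the numbers were not taken as pairs. edgeR and DESeq2 were not run. Among the 10 transcripts depth limits Impdh1 most, at 19 reads in the shallowest library; Cox10 held 7 reads there and Nme4 stood at 0 in Cox10-/- replicate 1.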
